A study of Mus musculus with 50 samples.

Results

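The comparison described here set motor neurons grown in culture for 28 days (DIV28, days in vitro) against motor neurons of the mouse spinal cord at postnatal day 21 (P21), to find which transcripts the cultured cells lacked and which they held in excess. It used every untreated DIV28 library and every P21 library of nuclear RNA, 3 and 3, which is 6 of the 28 RNA libraries and of the 50 samples of the series in all. P21 nuclei came from spinal cords of C57BL/6 mice carrying Chat-Cre and a nuclear envelope reporter labelled SUN1-GFP-3xMYC, which the study's methods call SUN1-sfGFP-Myc, and cords of several animals of both sexes were combined for each replicate. DIV28 nuclei came from motor neurons derived from 1 mouse embryonic stem cell line with the same Chat-Cre and SUN1 reporter alleles, a line that is a single source of genetic background and sex. Chat-Cre marks all cholinergic neurons, so the tagged nuclei of the cord can include preganglionic neurons and cholinergic interneurons beside skeletal motor neurons. The differentiation gives motor neurons of cervical type, which were kept on cortical astrocytes from neonatal mice with the trophic factors GDNF, BDNF, CNTF and IGF, whereas the cord tissue held brachial and lumbar levels. In both groups the tagged nuclei were captured with antibody to GFP, but tissue was dounced and cultures were lysed. Setting (animal or dish), axial level, sex composition, glial environment and the way the nuclei were released all differed between the groups and cannot be told apart in these data.

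Spinal motor neurons are the cholinergic neurons that leave the cord to drive skeletal muscle. They acquire their identity in the embryo through homeodomain factors such as Isl1 and Mnx1, and their segmental and pool identity through the Hox genes. After birth they gain large axons, fast firing, mature synaptic receptors and a division into alpha and gamma, fast and slow types, while genes of axon growth recede and can be called on again after injury.

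Levels are given below as normalised counts, which are the deposited estimated read counts of a gene divided by the size factor of its library, and differences as log2 fold changes of DIV28 relative to P21 with their standard error, n = 3 and 3. Adjusted p-values are those of the quasi-likelihood test of edgeR, adjusted after Benjamini and Hochberg over all genes tested. A gene was called lower or higher at an unadjusted p below 0.001 and a difference of at least 2-fold. Where 3 values follow each other they are replicates 1, 2 and 3. Labels do not say whether the 3 DIV28 replicates came from separate differentiations, and if they did not, p-values measure only the spread between these libraries, which may be technical.

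P21 libraries held 3901648 to 3990891 counts each and DIV28 libraries 4892825 to 21823500. DIV28 replicate 3 is the library that the deposited labels title DIV0 replicate 3 and the study's sample table gives as DIV28 replicate 3. Its log2 levels correlated at r = 0.9413 and 0.9407 with the other DIV28 libraries and at 0.7455 and 0.7483 with the DIV0 libraries, across genes, which are not independent replicates. Without it, 2119 genes were lower and 2254 higher at DIV28, against 2031 and 2057 with it.

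The label of both groups was checked against 7 motor neuron markers. Isl1, a homeodomain factor that specifies motor neurons, stood at 262, 223 and 234 at P21 and 147, 268 and 246 at DIV28. Chat, which makes acetylcholine, stood at 858, 744 and 812 at P21 and 535, 374 and 359 at DIV28, a log2 difference of -0.89 ± 0.23 (adjusted p = 0.0029) that stayed short of 2-fold (without DIV28 replicate 1 it was -1.09 and Chat was called lower). All 7 markers were detected in every library, and 2 of them were called, Isl2 lower and the intermediate filament gene Prph higher.

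RNA of oligodendrocytes, astrocytes and red blood cells was more abundant at P21. The summed level of 13 oligodendrocyte markers was 7137 to 9713 normalised counts in the P21 libraries and 72.3 to 88.0 at DIV28, and all 12 that were tested were lower. Its defining members Mobp, Mag, Mog and Ugt8a had no count at all at DIV28. Hemoglobin and other erythroid transcripts summed to 202 to 384 at P21 and to 0, 0 and 1.17 at DIV28. Of 14 astrocyte markers tested, 8 were lower and Sox9 was higher at DIV28, with a list sum of 2849 to 3670 at P21 and 971 to 1363 at DIV28. Within the cultures Gfap and Aqp4 were highest in replicate 3 (15.2, 6.53 and 107 for Gfap, 1.17, 5.88 and 51.3 for Aqp4), whereas the fibroblast transcripts Col1a1 and Col3a1 were near 0 in replicate 3 and present in the other two (122, 64.3 and 0 for Col1a1, 122, 122 and 1.47 for Col3a1). The sum of 10 endothelial markers was higher at DIV28 (409 to 858, against 72.4 to 132), through Flt1 and Ly6c1, while Cldn5, Pecam1, Kdr and Emcn were lower. Of the other lists, 2 of 12 fibroblast and pericyte markers were lower (Rgs5, Postn) and Fn1 higher, Gpr17 was the 1 called of 4 oligodendrocyte precursor markers (lower), Foxj1 the only ependymal marker tested (lower), and no Schwann cell marker of 4 was called. Csf1r, Cx3cr1 and Trem2, which define microglia, were too low to be tested. The part of these transcripts in the results below was not tested. In bulk libraries fewer cells of a type and less RNA per cell cannot be told apart.

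**Figure D1:**
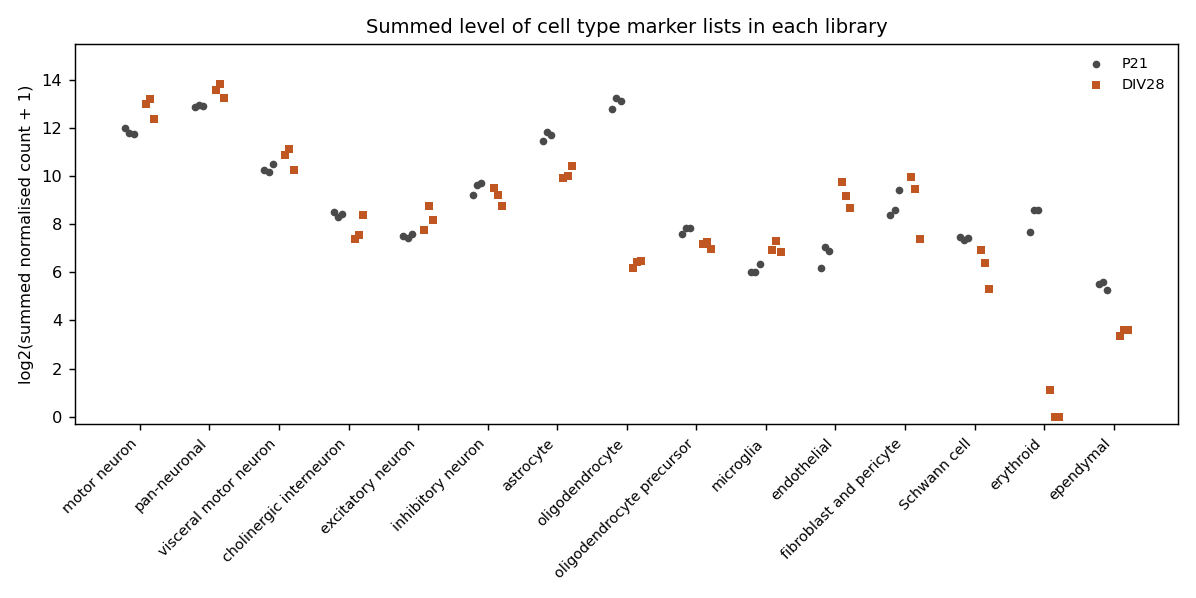
Summed normalised counts of 15 cell type marker lists on a log2 scale (y axis, 1 added before the logarithm), with 1 point for each library, P21 as dark circles and DIV28 as orange squares, replicates 1 to 3 from left to right. Oligodendrocyte and erythroid sums separate the groups most, while the motor neuron and pan-neuronal sums are higher in every DIV28 library than in any P21 library. Prph, 1 of the 7 motor neuron markers, carries the difference of the motor neuron sum, and the median log2 difference of the 7 is -0.07. For the 7 pan-neuronal markers the median is 0.05.

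At DIV28, 2031 of 15521 genes tested (13.1%) were lower and 2057 (13.3%) were higher than at P21, so that 26.3% differed in either direction. With an adjusted p below 0.05 and the same 2-fold limit, 2640 genes (17.0%) were lower and 2608 (16.8%) higher. At least 4-fold differences were called for 1064 lower and 848 higher genes. The replicates of the groups did not overlap for 2028 of the lower and 2047 of the higher genes. For called genes, here and below, such separation follows largely from the limits of the call and is no separate support. The share over all genes tested was not counted. The median log2 difference over all genes tested was 0.03, and 62.5% of genes were neither called nor 2-fold apart. Protein-coding genes made up 71.8% of the lower genes, 88.9% of the higher genes and 83.0% of all genes tested.

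**Figure D2:**
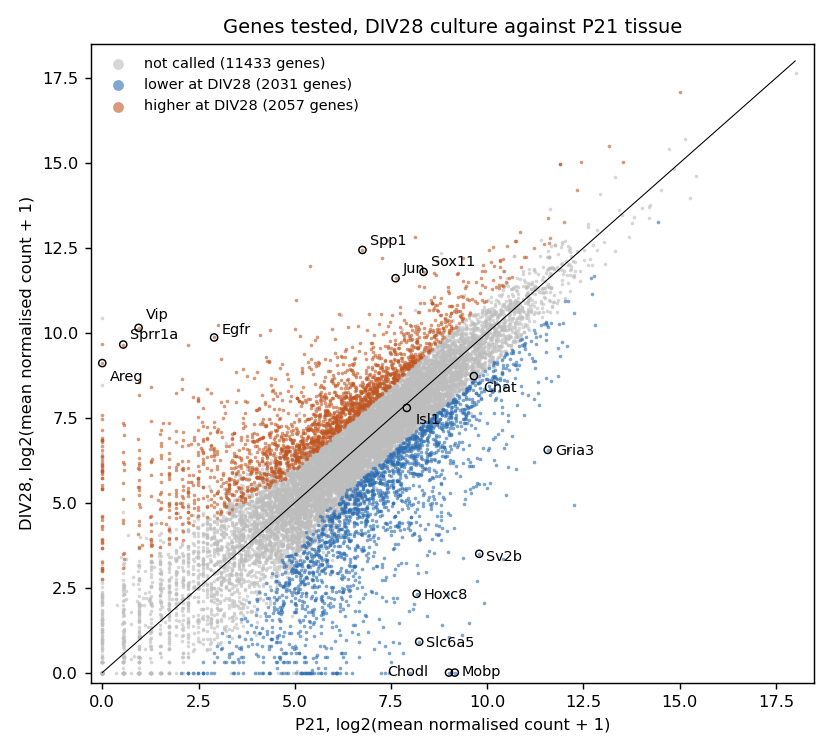
Mean normalised count of each gene tested at P21 (x axis) and at DIV28 (y axis), both on a log2 scale with 1 added, with 2031 genes lower at DIV28 in blue, 2057 higher in orange and the rest in grey, and the diagonal marking equal levels. Gria3, Sv2b and Chodl lie far below the diagonal and Sprr1a, Vip, Areg and Spp1 far above it, while Isl1 lies on it.

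Among genes with a mean of at least 200 normalised counts in the higher group, the 12 with the largest fitted fold in each direction were named by rule. The lower set held genes of myelinating glia, among them Mobp, Mal, Trf and Mbp, and 7 others, namely Chodl, Adarb2, Otof, Slc6a5, Fndc1, Kirrel3 and Cntn4. Chodl (chondrolectin, a membrane protein of fast motor neurons, GRCm38 chr16:78930948-78951733, plus strand) stood at 466, 614 and 460.3 at P21 and had no count in any DIV28 library. Set against a floor of 3 counts over the 3 DIV28 libraries, it was at least 905-fold lower. Otof (otoferlin, a calcium sensor of vesicle fusion, chr5:30367062-30461932, minus strand) stood at 762, 551 and 637 at P21 and 0, 1.31 and 2.20 at DIV28, and Adarb2 (a relative of the RNA-editing adenosine deaminases, chr13:8202866-8768747, plus strand) at 692, 738 and 769 at P21 and 2.33, 0 and 2.93 at DIV28. For Slc6a5, the neuronal glycine transporter, the values were 234, 314 and 351 at P21 and 1.17, 0 and 1.47 at DIV28. Kirrel3, an adhesion protein, stood at 217, 175 and 229 at P21 and 1.17, 2.61 and 1.47 at DIV28. Fndc1 (284, 472 and 602 at P21 and 1.17, 1.63 and 2.20 at DIV28) and the contactin gene Cntn4 (489, 528 and 491 at P21 and 1.17, 7.83 and 2.93 at DIV28) did not overlap between the groups either.

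The higher set consisted of Lilr4b, Areg, Sprr1a, Vip, Ly6c1, Prdm1, Sdc1, Ctla2a, Serpinb1a, Egfr, Atf3 and Fst. Lilr4b (an immunoglobulin-like receptor, chr10:51480632-51486703, plus strand) and Areg (amphiregulin, a ligand of the EGF receptor, chr5:91139599-91148432, plus strand) had no count at P21 and stood at 1108, 704 and 651 and at 452, 389 and 812 at DIV28, at least 590.5-fold and 396-fold higher. Egfr itself (chr11:16752203-16918158, plus strand) stood at 4.18, 8.41 and 6.89 at P21 and 884, 1068 and 838 at DIV28, a log2 difference of 7.18 ± 0.39 (edgeR adjusted p = 1.2e-11). Prdm1, a zinc finger repressor, stood at 0, 1.40 and 1.38 at P21 and 337, 271 and 259.5 at DIV28. Sdc1, a heparan sulphate proteoglycan, stood at 1.39, 2.80 and 0 at P21 and 394, 447 and 171 at DIV28. Fst, the activin antagonist follistatin, stood at 2.78, 0 and 5.51 at P21 and 129, 401 and 361 at DIV28. Every DIV28 library exceeded every P21 library for all 12 genes, which their choice by largest fold among called genes nearly ensured.

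**Figure D3:**
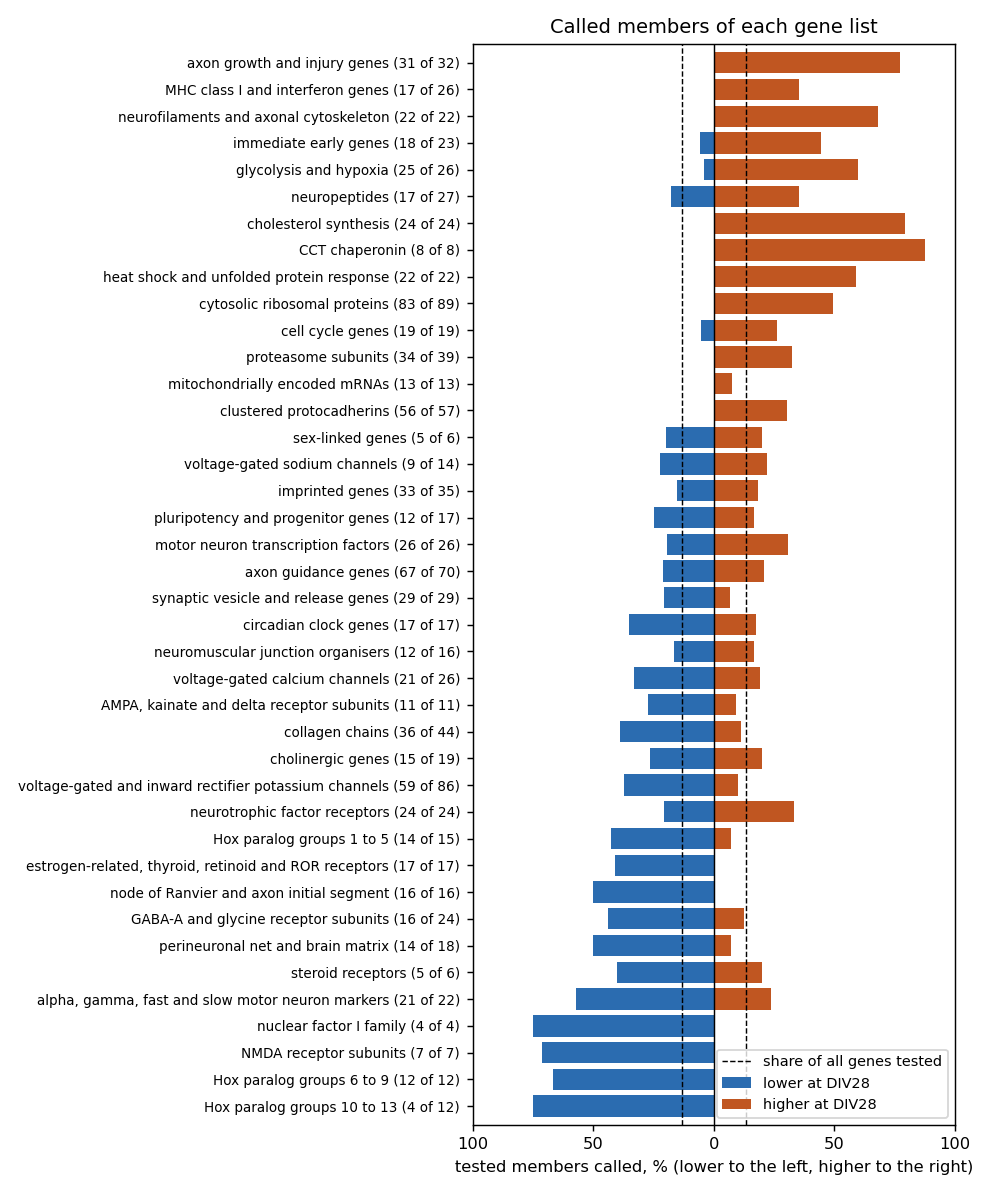
For 40 gene lists, the share of tested members called lower (blue, to the left) and higher (orange, to the right) at DIV28, in percent, ordered by the median log2 difference, with the numbers tested and listed in brackets and dashed lines at the shares over all genes tested (13.1% and 13.3%). Hox, NMDA receptor, nuclear factor I and subtype marker lists lie at the lower end and cholesterol synthesis, cytoskeleton and injury lists at the upper end.

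Lists share some genes, so their counts are not independent of each other. Atf3, for example, is in the injury, immediate early and heat shock lists, and Vip and Gal are in the injury and neuropeptide lists. Counts of list members given from here on were also taken without DIV28 replicate 3. They then changed by more than 1 gene for potassium channels (4 higher in place of 6), axon guidance (16 lower and 12 higher in place of 14 and 14), neuropeptides (8 higher in place of 6), collagens (12 lower in place of 14), perineuronal nets (5 lower and 3 higher in place of 7 and 1) and for 4 lists named with their values further on.

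Isl1 and Mnx1 overlapped between culture and tissue, while most tested markers of motor neuron subtypes were called. Of 26 transcription factors of motor neuron development, 5 were lower and 8 higher at DIV28 (median log2 difference -0.08). Mnx1, the homeodomain factor also called Hb9, stood at 27.8, 19.6 and 19.3 at P21 and 23.3, 42.8 and 17.6 at DIV28 and overlapped between the groups. Lhx4, a LIM factor of motor neuron precursors, was lower with 231, 227 and 223 at P21 and 44.3, 38.8 and 41.8 at DIV28 (-2.42 ± 0.19). Ebf2 stood at 36.2, 64.5 and 62.0 at P21 and 1.17, 0 and 0 at DIV28. Higher at DIV28 was Sox11, a factor of young neurons, with 276, 369.9 and 328 at P21 and 2658, 3489 and 4498 at DIV28. Runx1 (25.1, 26.6 and 23.4 at P21 and 209, 196 and 225 at DIV28) and Nkx6-1 (2.78, 5.60 and 2.76 at P21 and 38.5, 46.7 and 27.9 at DIV28), which mark motor neuron pools or progenitors, were higher too. For Onecut1 the values were 29.2, 40.6 and 30.3 at P21 and 114, 102 and 292 at DIV28.

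Cholinergic genes were 4 lower and 3 higher of 15 tested. The vesicular acetylcholine transporter Slc18a3 (229.7, 269 and 254 at P21 and 576, 428 and 328 at DIV28), the choline transporter Slc5a7 (1143, 1263 and 1207 at P21 and 718, 687 and 693 at DIV28) and the esterase Ache (494, 362 and 402 at P21 and 399, 243 and 185 at DIV28) were not called. Chrm2, the muscarinic receptor at the cholinergic inputs of motor neurons, stood at 549.9, 575 and 532 at P21 and 43.1, 66.9 and 105 at DIV28, a log2 difference of -2.89 ± 0.40 (edgeR adjusted p = 4.3e-06). Chrm3, another muscarinic receptor, went the other way with 25.1, 21.02 and 34.5 at P21 and 402, 387 and 526 at DIV28 (4.06 ± 0.31, adjusted p = 8.7e-10). Prima1, which anchors the esterase (not called without DIV28 replicate 3, at -2.16), and Slc10a4, a vesicular transporter, were lower too. The genes for making, packing and breaking down acetylcholine (Chat, Slc18a3, Slc5a7, Ache) thus had fitted differences within 2-fold in this comparison, and receptor genes were split. Chat and Slc5a7 still lay lower and Slc18a3 higher at DIV28 without overlap between the groups.

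Of 21 tested markers of alpha, gamma, fast and slow motor neurons, 12 were lower and 5 higher at DIV28 (median log2 difference -1.67). The lower group joined fast markers, such as Chodl, the matrix protease Mmp9 (22.3, 33.6 and 19.3 at P21 and 1.17, 5.88 and 2.93 at DIV28) and Calcb, with the slow marker Sv2b, a synaptic vesicle protein, at 891, 933 and 832 at P21 and 9.33, 9.79 and 11.7 at DIV28 (-6.37 ± 0.34, adjusted p = 4.3e-12). It also held genes linked to gamma motor neurons, Esrrb (83.5, 51.8 and 41.3 at P21 and 6.99, 7.83 and 4.40 at DIV28), Esrrg (196, 251 and 187 at P21 and 38.5, 22.8 and 48.4 at DIV28) and Htr1d (55.7, 36.4 and 79.9 at P21 and 3.497, 0.979 and 4.40 at DIV28). The neuronal splicing factor Rbfox3, which marks alpha motor neurons in the cord, stood at 425, 411 and 375 at P21 and 86.3, 123 and 90.9 at DIV28. Vipr2, a receptor for vasoactive intestinal peptide, was lower as well (306, 328 and 189 at P21 and 2.33, 3.26 and 3.67 at DIV28, log2 difference -6.33 ± 0.40). Markers of fast and slow and of alpha and gamma cells were thus lower side by side. Among the higher genes, Spp1 (osteopontin, an alpha motor neuron marker in tissue) stood at 78.0, 128 and 116 at P21 and 5670.2, 7108 and 3874 at DIV28, a log2 difference of 5.74 ± 0.30 (edgeR adjusted p = 3.4e-12), and Gfra1 (the GDNF co-receptor) and Wnt7a, both named for gamma cells, were higher as well.

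Preganglionic and interneuron genes were mixed. Nos1 (425, 405 and 492 at P21 and 32.6, 30.4 and 6.598 at DIV28), Fbn2 (331, 279 and 356 at P21 and 51.3, 27.1 and 8.80 at DIV28) and Mme (34.8, 78.5 and 49.6 at P21 and 0, 0.326 and 0 at DIV28), which are enriched in visceral motor neurons, were lower. Vip and the serotonin transporter Slc6a4 were higher, with Slc6a4 at 0, 0 and 0 at P21 and 141, 149 and 55.0 at DIV28. Pax2 (89.1, 56.05 and 64.8 at P21 and 1.17, 0 and 2.93 at DIV28), a factor of inhibitory interneurons, was lower. Inhibitory markers were 3 lower and 3 higher of 10 tested, with Pax8 at 37.6, 35.0 and 55.1 at P21 and 0, 0 and 0 at DIV28 and En1, a marker of ventral interneurons, at 0, 4.20 and 2.76 at P21 and 76.9, 71.2 and 47.7 at DIV28.

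Many caudal Hox genes were among those that cultures lacked. Hox genes form 4 clusters in which low paralogue numbers are used at rostral levels and high numbers at caudal levels. Of paralogue groups 6 to 9, 8 of 12 genes were lower and none was higher at DIV28 (median log2 difference -2.90), and of groups 10 to 13, 3 of the 4 tested were lower (median -3.12). Of groups 1 to 5, 6 of 14 were lower and 1 higher (median -0.90). All 6 genes tested of the HoxC cluster, from Hoxc4 to Hoxc10, were lower. Hoxd8 and Hoxd9 were not called, and without DIV28 replicate 3 Hoxd11 (log2 difference -2.79) was no longer called, which left 2 of the 4.

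Hoxc8 (GRCm38 chr15:102990607-102994111), which patterns brachial and thoracic levels, stood at 369, 262 and 227 at P21 and 2.33, 8.16 and 1.47 at DIV28 (-5.74 ± 0.48, adjusted p = 7.9e-09). Hoxc9, the thoracic determinant, stood at 229.7, 123 and 78.6 at P21 and 2.33, 0 and 3.67 at DIV28 (-6.53 ± 0.66, adjusted p = 1.2e-07). Hoxc6 (304, 216 and 211 at P21 and 13.99, 15.3 and 24.9 at DIV28) and Hoxc10 (52.9, 39.2 and 35.8 at P21 and 5.83, 4.90 and 0.733 at DIV28), used at brachial and lumbar levels, were lower too. Rostral members of the same cluster were lower as well. Hoxc4 went from 258, 159.7 and 164 to 32.6, 16.6 and 20.5, Hoxc5 from 265, 175 and 222 to 13.99, 12.7 and 18.3.

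In the other clusters several rostral genes overlapped. Hoxb4 (78.0, 68.7 and 64.8 at P21 and 67.6, 105 and 120.2 at DIV28), Hoxa4 (26.5, 18.2 and 40.0 at P21 and 30.3, 13.7 and 18.3 at DIV28) and Hoxa5 (71.0, 64.5 and 40.0 at P21 and 61.8, 19.6 and 31.5 at DIV28), which belong to cervical levels, were not called. Hoxd10, a lumbar gene, stood at 25.1, 37.8 and 23.4 at P21 and 3.497, 15.3 and 5.87 at DIV28 and was not called. Hoxa13 (0, 0 and 0 at P21 and 17.5, 30.7 and 13.9 at DIV28) and Hoxb13 (0, 0 and 0 at P21 and 5.83, 17.6 and 3.67 at DIV28), the most caudal paralogues, had no count at P21 and were detected in each DIV28 library, but they did not pass the filter on low counts and were not tested. The counting was run at its defaults, which do not use the strand of the reads, so sense and antisense transcripts of the Hox clusters cannot be told apart.

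**Figure D4:**
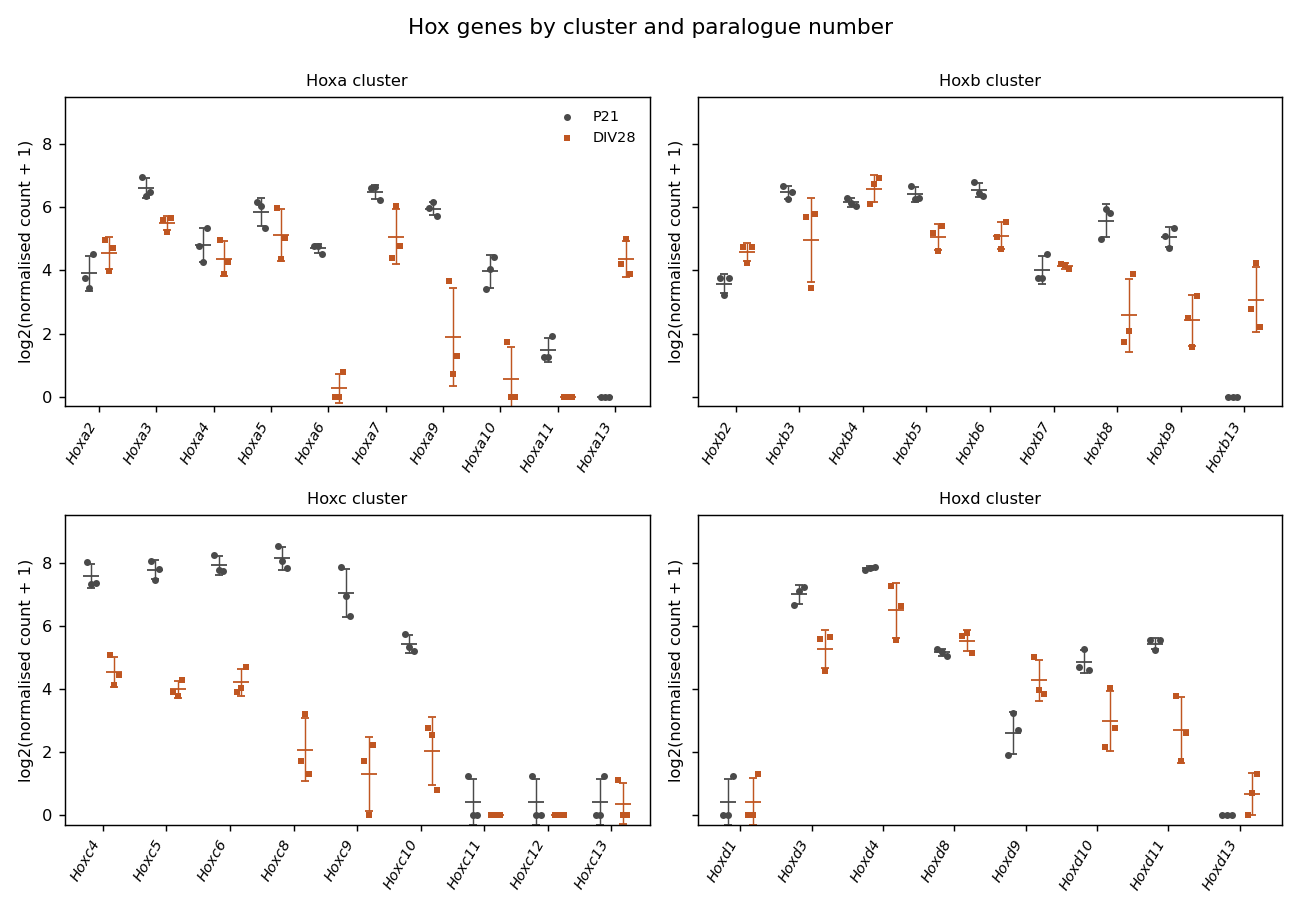
Normalised counts of Hox genes with a count in any of the 6 libraries, on a log2 scale with 1 added (y axis), by cluster and in order of paralogue number (x axis), with 1 point for each library and bars for mean ± SD of the log2 values, n = 3 (P21 circles, DIV28 squares). The groups lie apart from Hoxc4 to Hoxc10 and at Hoxa6, Hoxa9, Hoxa10 and Hoxb8, and they overlap at Hoxb4, Hoxb7 and Hoxd8.

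Ion channel genes of mature excitability were among the transcripts that cultures lacked. Of 59 tested members of the Kcn gene family (channel subunits and 1 noncoding gene that carries the name), 22 were lower and 6 higher at DIV28 (median log2 difference -0.81). Kcng4, a silent subunit that modifies Kv2 channels, stood at 168, 192 and 175 at P21 and 0, 0 and 0.733 at DIV28 (edgeR adjusted p = 1.2e-10). Kcnj14, an inward rectifier known from motor neurons, stood at 131, 133 and 95.1 at P21 and 1.17, 1.96 and 0.733 at DIV28 (-6.20 ± 0.51, adjusted p = 2.6e-09). Kcnab3, an accessory subunit of Kv1 channels, stood at 127, 89.7 and 125 at P21 and 2.33, 1.31 and 2.93 at DIV28 (-5.75 ± 0.42, adjusted p = 4.6e-10).

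The sodium-activated channel Kcnt1 fell from 2680.1, 1819 and 1929.5 to 295, 268 and 305. By contrast Kcnj2, the inward rectifier Kir2.1, was higher with 89.1, 104 and 68.9 at P21 and 387, 548 and 513 at DIV28 (2.51 ± 0.27, adjusted p = 1.4e-07). The lower calls thus concerned particular subunits, with 31 of the 59 not called.

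Of 9 sodium channel genes tested, 2 were lower and 2 higher. Scn4b, the accessory subunit that carries resurgent current, stood at 330.0, 402 and 369 at P21 and 15.2, 22.8 and 52.8 at DIV28 (-3.55 ± 0.30, edgeR adjusted p = 4.7e-09). Scn1a, an adult alpha subunit, was lower (2882, 3150.2 and 2861 at P21 and 918, 1371 and 1575 at DIV28). Scn3a (581, 580.3 and 602 at P21 and 1385, 1592 and 1683 at DIV28) and Scn9a (411, 425 and 465 at P21 and 1613, 2036 and 1996 at DIV28), alpha subunits used strongly in development and in peripheral neurons, were higher. Scn8a, the alpha subunit of mature nodes, stood at 3545, 2853 and 3091 at P21 and 1712, 2174 and 2012 at DIV28 and did not reach 2-fold (-0.65 ± 0.16, adjusted p = 0.0023).

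Calcium channel genes were 7 lower and 4 higher of 21 tested. The low-threshold T-type subunits Cacna1g (1486, 1275 and 1097 at P21 and 356, 388 and 429.6 at DIV28), Cacna1h (862, 612 and 655 at P21 and 324, 190.0 and 177 at DIV28) and Cacna1i (89.1, 72.9 and 121 at P21 and 5.83, 10.44 and 7.33 at DIV28) were all lower. Cacna1d, an L-type subunit linked to persistent inward currents, was lower too (2606, 2454 and 2281 at P21 and 828, 878 and 1109 at DIV28). Presynaptic Cacna1a and Cacna1b were not called, with log2 differences of -0.59 ± 0.16 and 0.30 ± 0.24. Cacna2d1, an accessory subunit, was higher with 619.5, 677 and 671 at P21 and 3218, 6266 and 4620.2 at DIV28.

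Of 16 genes of the node of Ranvier and the axon initial segment, the sites where myelinated axons hold their channels, 8 were lower and none higher at DIV28 (median log2 difference -0.93). Kcna1 (1303, 1394 and 1337 at P21 and 127, 233 and 319 at DIV28) and Kcna2 (1759.8, 2245 and 2036 at P21 and 494, 810.4 and 906 at DIV28) were among them. So were Cntnap1 (982, 866 and 660.2 at P21 and 367, 218 and 306 at DIV28) and the spectrin gene Sptb (1292, 1104 and 1120.5 at P21 and 204, 378 and 191 at DIV28). Ank3, the scaffold of both sites, was not called (6942, 5965 and 6039 at P21 and 8311, 10662 and 7684 at DIV28). Kcna1, Kcna2 and Cntnap1 belong to the junctions that axons form with myelin, and oligodendrocyte RNA was lower in the same libraries (above).

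**Figure D5:**
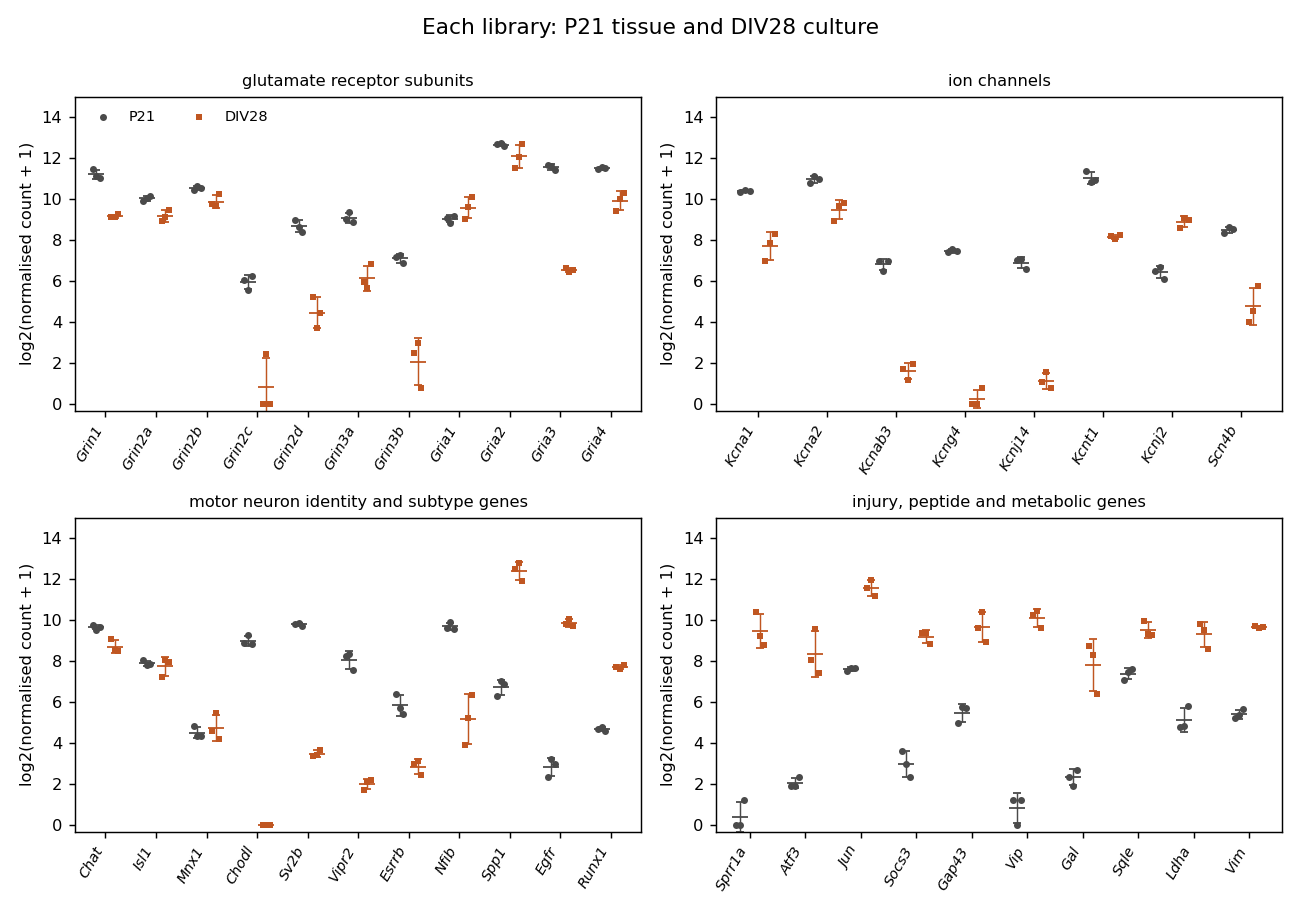
Normalised counts of 40 genes in each library on a log2 scale with 1 added (y axis), in 4 panels, with 1 point for each of 3 libraries a group and bars for mean ± SD of the log2 values (P21 circles, DIV28 squares). Chodl, Kcng4 and Kcnj14 lie below 2 on this scale at DIV28 only, Sprr1a and Vip at P21 only, and Isl1, Mnx1 and Gria2 overlap between the groups.

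Receptors for fast transmission were lower for most subunits that were called. Of the 7 NMDA receptor subunit genes, 5 were lower and none higher (median log2 difference -2.88). Grin1, the subunit that every NMDA receptor contains, stood at 2851, 2253 and 2106 at P21 and 557, 557 and 613 at DIV28 (-2.02 ± 0.27, edgeR adjusted p = 2.7e-06). Grin3b, a glycine-binding subunit found in motor neurons, stood at 143, 154 and 117 at P21 and 4.66, 6.85 and 0.733 at DIV28 (-4.85 ± 0.37, adjusted p = 1.9e-09). Grin2c (65.4, 46.2 and 74.4 at P21 and 0, 4.57 and 0 at DIV28), Grin2d (505, 402 and 338 at P21 and 36.1, 12.4 and 21.3 at DIV28) and Grin3a (532, 659 and 474 at P21 and 60.6, 49.3 and 112 at DIV28) were lower as well. Grin2a and Grin2b, with log2 differences of -0.80 ± 0.25 and -0.60 ± 0.29, were not called.

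Among AMPA, kainate and delta receptor genes, 3 of 11 were lower and 1 higher. Gria3 (GRCm38 chrX:41400854-41678601, plus strand) stood out with 3256, 3154 and 2716 at P21 and 97.9, 87.1 and 93.8 at DIV28, a log2 difference of -5.0 ± 0.22 (edgeR adjusted p = 3.6e-13). Gria4 was lower (2861, 3027 and 2962 at P21 and 682, 1037 and 1276 at DIV28). Gria1 (549.9, 462 and 577 at P21 and 533, 793 and 1093 at DIV28) and Gria2 (6654, 6733 and 6141 at P21 and 2944, 4199 and 6600.1 at DIV28), which sets the calcium permeability of AMPA receptors, were not called. The kainate subunit Grik3 was higher, with 79.4, 50.4 and 48.2 at P21 and 487, 777 and 485 at DIV28. AMPA receptor genes were thus split by subunit, with the groups far apart for Gria3 and close for Gria2.

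Of 16 GABA-A and glycine receptor genes tested, 7 were lower and 2 higher. Glra1, the adult glycine receptor subunit, stood at 700.3, 817 and 721 at P21 and 94.4, 75.7 and 48.4 at DIV28 (-3.32 ± 0.21, edgeR adjusted p = 6.9e-11), and was lower. Glra3, another glycine receptor subunit, was higher with 52.9, 54.6 and 52.4 at P21 and 259.9, 249 and 331 at DIV28 (2.43 ± 0.26, adjusted p = 3.7e-07). Gabrb2 (87.7, 85.5 and 101 at P21 and 9.33, 4.57 and 14.7 at DIV28), Gabra3, Gabra4, Gabra5 and Gabrq were lower, and Gabrg3 was higher, a call lost without DIV28 replicate 3 (0.98). The glycine receptor beta subunit Glrb was not called, with a log2 difference of -0.13 ± 0.21.

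Most genes of vesicle release were not called. Of 29 tested, 6 were lower and 2 higher (median log2 difference -0.21). Rph3a, a Rab3 effector, fell from 1859, 1680.1 and 1590.5 to 22.1, 55.8 and 111, and Syn3 from 529, 596 and 604 to 106, 80.3 and 134. Syt2 (1151, 1049.5 and 1116 at P21 and 274, 489 and 466 at DIV28) and Vamp1 (881, 949 and 815 at P21 and 239, 312 and 304 at DIV28), the calcium sensor and SNARE of fast neuromuscular release, were lower. Snap25, Syt1 and Syp were not called. Syt4 (339.7, 469 and 412 at P21 and 2976, 3697 and 3242 at DIV28) and Stx1a (80.8, 47.6 and 30.3 at P21 and 360.2, 226 and 189.9 at DIV28) were higher. Of 12 organisers of the neuromuscular junction, Nrg2 and Lrp4 were lower, and Gdf11 and Wnt4 were higher, with Wnt4 at 2.78, 4.20 and 9.65 at P21 and 367, 407 and 204 at DIV28 (5.89 ± 0.39, edgeR adjusted p = 1.2e-10). Agrn, whose product clusters acetylcholine receptors, was not called (-0.86 ± 0.21).

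Neuropeptide genes were 6 higher and 3 lower of 17 tested. Vip (vasoactive intestinal peptide, GRCm38 chr10:5639218-5647617, plus strand) stood at 1.39, 0 and 1.38 at P21 and 1233, 1386 and 775 at DIV28 (edgeR adjusted p = 5.5e-11). Gal, galanin, stood at 4.18, 2.80 and 5.51 at P21 and 427, 314 and 82.8 at DIV28 (6.05 ± 0.69, adjusted p = 3.7e-07), with replicate 3 the lowest of the DIV28 libraries. Pnoc (11.1, 11.2 and 13.8 at P21 and 283, 239.9 and 245 at DIV28), Crh (1.39, 2.80 and 1.38 at P21 and 64.1, 57.8 and 48.4 at DIV28), Vgf (84.9, 84.1 and 79.9 at P21 and 1308, 1050.3 and 1099 at DIV28) and Scg2 were higher too. Penk (124, 165 and 142 at P21 and 0, 2.61 and 0 at DIV28), Sst (27.8, 51.8 and 40.0 at P21 and 0, 0 and 0 at DIV28) and Calcb (33.4, 44.8 and 59.3 at P21 and 6.99, 2.94 and 0.733 at DIV28) were lower. The motor neuron peptide Calca was not called (59.9, 68.7 and 45.5 at P21 and 121, 174 and 69.6 at DIV28).

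Receptors for trophic factors, several of whose ligands were in the culture medium, were 5 lower and 8 higher of 24. Ret (856, 656 and 611 at P21 and 2364, 1937 and 1809 at DIV28) and Gfra1 (508, 582 and 509.9 at P21 and 1433, 1719 and 1457 at DIV28), which together receive GDNF, were higher. Ntrk2, the receptor for BDNF, was lower (1892, 2008 and 1861 at P21 and 645, 925 and 809 at DIV28). So was the IGF receptor gene Igf1r (643, 537 and 568 at P21 and 145, 228 and 161 at DIV28). Lifr, which takes part in the CNTF receptor, was higher (1011, 921 and 1038 at P21 and 3451, 4126 and 3222 at DIV28). Cntfr and Il6st, its partners, were not called (-0.83 ± 0.20 and 0.78 ± 0.16). Ngfr, the p75 receptor of immature and injured motor neurons, stood at 0, 0 and 1.38 at P21 and 73.4, 132 and 59.4 at DIV28. Met, the receptor of hepatocyte growth factor, stood at 13.9, 30.8 and 24.8 at P21 and 182, 147 and 199 at DIV28. Among the ErbB family Egfr was higher, and Erbb3 and Erbb4 (79.4, 91.1 and 113 at P21 and 2.33, 0 and 5.13 at DIV28) were lower.

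Several nuclear receptors and nuclear factor I genes were lower in culture. None of 17 estrogen-related, thyroid, retinoid and ROR receptor genes was higher and 7 were lower. Thrb, a thyroid hormone receptor, stood at 278, 244 and 303 at P21 and 58.3, 80.6 and 99.7 at DIV28. Rxrg, a retinoid X receptor, stood at 19.5, 23.8 and 17.9 at P21 and 2.33, 0 and 2.20 at DIV28. Rorb (65.4, 74.3 and 41.3 at P21 and 0, 7.18 and 3.67 at DIV28) and Vdr, the vitamin D receptor (37.6, 39.2 and 24.8 at P21 and 2.33, 1.63 and 1.47 at DIV28), were lower as well. Of the steroid receptors, the mineralocorticoid receptor Nr3c2 (710.0, 819.7 and 641 at P21 and 65.3, 58.8 and 106 at DIV28) was lower. Pgr was higher (281, 298 and 342 at P21 and 501, 602 and 776 at DIV28; not called without DIV28 replicate 3, at 0.91), and Esr1 was not called (26.5, 39.2 and 16.5 at P21 and 10.49, 9.14 and 16.1 at DIV28). The nuclear factor I family acts in late steps of neuronal and glial differentiation. Nfia (493, 656 and 536 at P21 and 95.6, 87.8 and 122 at DIV28) and Nfix (79.4, 77.1 and 66.2 at P21 and 10.49, 21.9 and 21.3 at DIV28) were lower, and Nfic was not called (-0.58 ± 0.26). Nfib stood at 774, 964 and 765 at P21 and 13.99, 37.2 and 82.1 at DIV28, a log2 difference of -4.16 ± 0.40 (edgeR adjusted p = 2.8e-08). Of 17 circadian clock genes, 6 were lower, with Per1, Per2, Per3, Arntl, Tef and Hlf, and 3 were higher, with Nfil3, Bhlhe40 and Bhlhe41. Per1 stood at 224, 198 and 196 at P21 and 90.9, 82.3 and 76.2 at DIV28. Nfil3, which opposes the Dbp, Tef and Hlf factors, stood at 19.5, 8.41 and 17.9 at P21 and 139, 146 and 100.4 at DIV28.

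Transcripts in excess included many genes that neurons switch on during axon growth and after nerve injury. Of 31 tested, 24 were higher and none lower at DIV28 (median log2 difference 2.68). Sprr1a, a small proline-rich protein induced in injured neurons (GRCm38 chr3:92483952-92485895, minus strand), had 1 count over the 3 P21 libraries and stood at 1368, 599 and 448 normalised counts at DIV28 (edgeR adjusted p = 7.3e-10). Atf3, a stress-induced transcription factor, stood at 2.78, 2.80 and 4.13 at P21 and 266, 759 and 172 at DIV28 (6.95 ± 0.62, adjusted p = 9.5e-09). Socs3, a feedback inhibitor of cytokine signals, stood at 11.1, 7.01 and 4.13 at P21 and 659.7, 666 and 455 at DIV28 (6.34 ± 0.43, adjusted p = 1.5e-10).

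Gap43, the growth cone protein, stood at 30.6, 53.2 and 51.0 at P21 and 797, 1363 and 485 at DIV28. Gadd45a, a growth arrest gene, stood at 19.5, 15.4 and 28.9 at P21 and 345, 591 and 253 at DIV28, and Tubb6, a tubulin, at 4.18, 8.41 and 1.38 at P21 and 317, 313 and 178 at DIV28. Csf1, the microglial growth factor that injured motor neurons release, stood at 90.5, 77.1 and 68.9 at P21 and 659, 902 and 655 at DIV28. All DIV28 libraries exceeded all P21 libraries for these 4 genes. Npy, Adcyap1, Ecel1, Hspb1, Dcx, Ddit3 and Chac1 were not called, and for Dcx, a marker of migrating young neurons, the values were 279.8, 268 and 343 at P21 and 295, 243 and 501 at DIV28.

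The immediate early genes, which respond within minutes to activity or stress, were 8 higher and 1 lower of 18 tested. Jun (GRCm38 chr4:95049034-95052222, minus strand) stood at 184, 200.4 and 203 at P21 and 3054, 3973 and 2325 at DIV28, a log2 difference of 4.04 ± 0.29 (edgeR adjusted p = 3.5e-10), and Fosl2 at 75.2, 68.7 and 62.0 at P21 and 397, 582 and 379 at DIV28. Ier5 (2.78, 5.60 and 2.76 at P21 and 89.8, 94.7 and 121 at DIV28), Btg2 and Dusp1 (57.1, 43.4 and 57.9 at P21 and 424, 361 and 215 at DIV28) were higher as well. Fos (12.5, 21.02 and 16.5 at P21 and 22.1, 28.7 and 32.3 at DIV28), Egr1 (33.4, 37.8 and 38.6 at P21 and 24.5, 34.9 and 39.6 at DIV28), Arc and Npas4 (54.3, 49.0 and 66.2 at P21 and 46.6, 39.8 and 98.2 at DIV28) were not called. Nr4a1 was lower (57.1, 75.7 and 46.9 at P21 and 16.3, 12.4 and 24.9 at DIV28). Ier2 and Bdnf, with log2 differences of 1.98 ± 0.75 and 1.93 ± 0.53, missed the limit on p. The called genes took in 3 of the Jun family (Jun, Junb, Jund). Whether activity or stress had a part in these calls was not tested.

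Of 22 neurofilament and axonal cytoskeleton genes, 15 were higher and none lower (median log2 difference 1.82). Tubb2b stood at 28.4, 40.5 and 34.3 at P21 and 1304, 1036 and 526 at DIV28 (4.84 ± 0.46, edgeR adjusted p = 2.0e-08) and Tuba1a at 372, 366 and 447 at P21 and 5218, 3219.6 and 1920.5 at DIV28. Sncg, gamma-synuclein, stood at 80.8, 96.7 and 117 at P21 and 1307, 1642 and 546 at DIV28. The intermediate filament genes Prph (1470.2, 992 and 914 at P21 and 6275, 7561 and 3728 at DIV28) and Nefl were higher, Nefh was not called (4281, 4658 and 4144 at P21 and 3307, 10704 and 3905 at DIV28), and Vim, an intermediate filament of immature cells, stood at 36.2, 40.6 and 49.6 at P21 and 826, 776 and 804 at DIV28. The counts of the injury and cytoskeleton lists were the same without DIV28 replicate 3.

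A metabolic set was higher in culture as well. Of 24 genes of cholesterol synthesis and its control, 19 were higher and none lower at DIV28 (median log2 difference 1.55), with and without replicate 3. Sqle (GRCm38 chr15:59315077-59331192) stood at 136, 174 and 198 at P21 and 998, 631 and 624 at DIV28 (2.19 ± 0.20, edgeR adjusted p = 1.7e-08) and Hsd17b7 at 58.5, 92.5 and 71.7 at P21 and 745, 641 and 473 at DIV28 (3.10 ± 0.27), both enzymes of the sterol branch. Insig1, which restrains synthesis, was higher with a log2 difference of 1.93 ± 0.19. Mvk, Lss, Sc5d, Dhcr7 and Srebf2, which encodes the transcription factor of the pathway, were not called. Genes of the heat shock and unfolded protein responses were 13 higher and none lower of 22. Hspa5, the main chaperone of the endoplasmic reticulum, stood at 228, 322 and 291 at P21 and 910.4, 1389.8 and 1043 at DIV28 (2.03 ± 0.19, edgeR adjusted p = 1.7e-08). Atf4, a factor of the integrated stress response, stood at 214, 214 and 214 at P21 and 822, 595 and 571 at DIV28 (1.67 ± 0.16, adjusted p = 3.0e-08). The heat-inducible Hspa1a was not called (7.98, 11.4 and 5.77 at P21 and 2.79, 12.1 and 9.42 at DIV28).

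Members of these lists are textbook targets of factors that act near the start site. Stretches of 120 bases before the RefSeq start (GRCm38.p6) are shown for higher genes of each list. These are the genes with the largest change among those with 1 promoter in the table, a match to CCAAT and no annotated exon in the stretch. Promoters on 1 chromosome were left out of this choice. The stretches read 5′ to 3′ on the gene's strand, with CCAAT or its reverse complement ATTGG in capitals.
Mvd (chr8:122443423-122443542, minus strand): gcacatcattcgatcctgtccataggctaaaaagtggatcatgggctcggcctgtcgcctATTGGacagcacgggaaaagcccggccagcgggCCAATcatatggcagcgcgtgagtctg
Hmgcs1 (chr13:119690231-119690350, plus strand): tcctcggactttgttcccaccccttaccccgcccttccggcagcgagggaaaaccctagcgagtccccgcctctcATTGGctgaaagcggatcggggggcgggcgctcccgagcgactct
Atf4 (chr15:80255064-80255183, plus strand): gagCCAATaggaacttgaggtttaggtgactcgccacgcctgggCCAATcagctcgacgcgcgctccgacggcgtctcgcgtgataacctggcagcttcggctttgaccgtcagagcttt
Pdia4 (chr6:47813513-47813632, minus strand): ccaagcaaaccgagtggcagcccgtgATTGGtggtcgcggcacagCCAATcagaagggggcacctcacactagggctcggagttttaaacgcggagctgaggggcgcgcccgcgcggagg
In these libraries Mvd (mevalonate decarboxylase) stood at 15.3, 28.0 and 31.7 at P21 and 205, 79.6 and 63.8 at DIV28, Hmgcs1 (HMG-CoA synthase) at 540.2, 687 and 759 at P21 and 2194, 1668 and 1683 at DIV28 and Pdia4 (a protein disulphide isomerase) at 107, 128 and 136 at P21 and 279.8, 448 and 235 at DIV28. CCAAT on either strand was found in the 250 bases before the start in 16 of 20 promoters of the cholesterol list (80%), in 16 of 22 of the heat shock and unfolded protein list (72.7%) and in 33.8% of the 32851 promoters in the table. It was found in 15 of 28 promoters of the injury list, 14 of 38 of the glycolysis list and 8 of 28 of the immediate early list. Counts are of promoters, and a gene can have several in the table. In all 10 strings were searched on both strands, and CCAAT was singled out after the matches were seen. The AP-1 string TGANTCA was in 2 of 28 injury promoters (7.14%) and 6.75% of all. The sterol string TCACNCCAC was in 1 of 20 cholesterol promoters (5%) and 1.05% of all. The E-box CACGTG was in 4 of 20 cholesterol promoters (20%) and 6.02% of all, and TGACGCA in 4 of 22 heat shock and unfolded protein promoters (18.2%) and 1.75% of all. The longer CCAATC, whose matches all lie in matches of CCAAT, was in 12 of 20 cholesterol promoters and 14.6% of all. The relaxed sterol string TCACNCNAC was in 2 of 20 cholesterol promoters (10%) and 2.26% of all. The STAT string TTCNNGAA was in 2 of 28 injury promoters (7.14%) and 7.17% of all. The string TGACGTCA was in none of the injury, cholesterol and heat shock promoters, in 2 of 28 immediate early promoters (7.14%), in 1 of 38 glycolysis promoters (2.63%) and in 1.55% of all. The amino acid response string ATTGCATCA was in none of the promoters of the 5 lists and in 0.167% of all. A match describes letters in this window and is not evidence of binding.

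Of 25 tested genes of glycolysis and hypoxia, 15 were higher and Gpi1 was lower (median log2 difference 1.57). Ldha, lactate dehydrogenase A, stood at 26.5, 28.0 and 55.5 at P21 and 885, 736 and 390.0 at DIV28 (4.24 ± 0.35, edgeR adjusted p = 2.9e-09). Hk2, an inducible hexokinase, had 1 count over the P21 libraries and stood at 68.8, 74.7 and 41.8 at DIV28. Pfkfb3, an activator of glycolysis, stood at 289.6, 309.7 and 317 at P21 and 2102, 2033 and 1501 at DIV28, and the glucose transporters Slc2a1 (45.9, 51.8 and 49.6 at P21 and 360.2, 409 and 254 at DIV28) and Slc2a3 were higher. The hypoxia genes Egln3, Ankrd37 and Adm were not called, and Vegfa was higher (430.2, 518 and 474 at P21 and 1447, 1368 and 1376 at DIV28).

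Genes of protein synthesis and folding were higher in part. Of 83 tested cytosolic ribosomal protein genes, 41 were higher and none lower (median log2 difference 1.12), with 48 higher without DIV28 replicate 3. Reads of these genes can be shared with their many processed copies, so single values are uncertain. The CCT chaperonin, which folds actin and tubulin, had 7 of 8 subunits higher, with log2 differences of 1.10 (Cct4) to 1.63 (Tcp1) among the 7. Of 34 proteasome subunits, 11 were higher and none lower, and 18 were higher without replicate 3. Of 13 mitochondrially encoded mRNAs, only mt-Nd6 was called, higher at DIV28, and mt-Co1 stood at 372, 673 and 739 at P21 and 964, 943 and 757 at DIV28.

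At the cell surface and in the matrix the lists were divided. Of 36 tested collagen chains, 14 were lower and 4 higher. Col5a1 (2325, 1134 and 861 at P21 and 90.9, 148 and 73.3 at DIV28), Col19a1 (309, 238 and 265 at P21 and 19.8, 13.1 and 14.7 at DIV28) and Col4a5 (309, 311 and 278 at P21 and 18.7, 18.9 and 4.40 at DIV28) were lower, and Col8a1 (32.0, 35.0 and 38.6 at P21 and 445, 457 and 582 at DIV28), Col6a1, Col6a2 and Col5a3 were higher. Of 14 tested genes of perineuronal nets and brain matrix, 7 were lower and Spock3 was higher. Bcan, brevican, stood at 902, 698 and 696 at P21 and 36.1, 29.0 and 48.4 at DIV28 (-4.32 ± 0.37, edgeR adjusted p = 4.9e-09). Hapln4, a link protein, stood at 306, 282 and 192 at P21 and 18.7, 34.6 and 16.1 at DIV28 and Acan, aggrecan, at 139, 135 and 117 at P21 and 25.6, 66.3 and 14.7 at DIV28 (not called without DIV28 replicate 3, at -1.36). Glia make several of these proteins too, and glial RNA was lower in the same libraries. Axon guidance genes were 14 lower and 14 higher of 67. Epha4, which steers motor axons in the limb, was lower with 168, 206 and 194 at P21 and 15.2, 6.53 and 13.2 at DIV28, and Sema5b with 106, 49.0 and 60.6 at P21 and 1.17, 3.59 and 4.40 at DIV28. Ntn1 (netrin) was higher with 5.57, 8.41 and 2.76 at P21 and 50.1, 95.3 and 46.2 at DIV28, and Sema6d with 478, 510.0 and 519.6 at P21 and 2608, 2551 and 2650.3 at DIV28. The neuropilins Nrp1 (707, 816 and 663 at P21 and 153, 171 and 281 at DIV28) and Nrp2 (735, 668 and 602 at P21 and 122, 227 and 260.3 at DIV28), receptors for class 3 semaphorins, were both lower.

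Of 56 tested clustered protocadherins, cell adhesion genes chosen at random in single neurons, 17 were higher and none lower. The higher members were 11 genes of the beta cluster, with Pcdhb2 at 15.3, 9.81 and 11.03 at P21 and 147, 158 and 151 at DIV28, 4 of the alpha cluster, with Pcdha1 at 12.5, 20.8 and 14.3 at P21 and 193, 232 and 223 at DIV28, and 2 of the gamma cluster. Alpha and gamma members share constant exons, so their estimated counts rest on the variable exon. Of 17 tested MHC class I and interferon genes, 6 were higher and none lower, and 4 were higher without DIV28 replicate 3. H2-K1, a classical MHC class I heavy chain, stood at 6.96, 2.80 and 8.27 at P21 and 142, 158 and 96.0 at DIV28 and its light chain B2m at 4.18, 7.01 and 16.5 at P21 and 93.3, 42.8 and 82.1 at DIV28. Class I genes are near-identical in parts, which makes their split counts uncertain.

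The lists of proliferation and of progenitors were mixed. Of 19 cell cycle genes, 5 were higher, with the arrest gene Cdkn1a at 8.35, 2.80 and 4.13 at P21 and 241, 321 and 103 at DIV28 (5.46 ± 0.53, edgeR adjusted p = 3.3e-08), and Tyms was lower. Mki67, the proliferation marker, stood at 8.35, 12.6 and 23.4 at P21 and 1.17, 9.47 and 2.20 at DIV28 and was not called. Of 12 tested pluripotency and progenitor genes, Esrrb, Olig2 and Dll1 were lower and Vim and Pax6 were higher. Sox2 stood at 5.57, 7.01 and 9.65 at P21 and 0, 12.1 and 4.40 at DIV28. Of 33 tested imprinted genes 5 were lower, with Dlk1 at 52.9, 57.5 and 75.8 at P21 and 1.17, 3.59 and 0.733 at DIV28, and 6 were higher, with Grb10 at 278, 255 and 349 at P21 and 1766, 1539.6 and 1341 at DIV28, and 2 were lower without DIV28 replicate 3. Of the sex-linked genes, Xist, which is expressed from the inactive X chromosome, was lower (1607, 3514 and 2026 at P21 and 6.99, 122 and 88.0 at DIV28) and the Y-linked Ddx3y higher (145, 102 and 150.2 at P21 and 266, 362 and 343 at DIV28), and neither was called without that replicate (log2 differences of -4.99 and 1.32).

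The comparison was repeated in libraries that share none with it, DIV28 cultures kept with 1 µM tetrodotoxin (TTX, a blocker of sodium channels), n = 3, against P56 tissue, n = 3, although TTX and the age of the tissue differ too. Of 12345 genes tested there, 1286 (10.4%) were lower and 1497 (12.1%) higher in culture. Of the 1768 genes lower at DIV28 than at P21 that could be tested there, 1041 (58.9%) were also lower, which is 80.9% of the genes lower with TTX. Of 1783 higher genes, 1190 (66.7%) were also higher, which is 81% of the 1469 genes higher with TTX that were tested in both, and no gene was called in opposite directions. With edgeR adjusted p in brackets, Gria3 differed by -3.97 on the log2 scale (7.6e-06), Sv2b by -7.17 (7.4e-05), Nfib by -3.02 (7.7e-05) and Hoxc8 by -6.41 (3.5e-05). In the other direction Gal differed by 4.78 (0.0011) and Jun by 4.11 (1.2e-05). Chat, at -1.88 (0.0015), and Ache, at -1.70 (0.00096), were called lower there, though neither was called at DIV28 against P21. Slc5a7 and Slc18a3 were not called there, with log2 differences of -1.01 and 0.71. Of the injury list 23 of the 28 members tested there were higher, and all 23 were higher at DIV28 than at P21 as well. For cholesterol synthesis this held for 17 of 24, for the Hox genes of groups 6 to 9 for 5 lower of 8, and for glycolysis for 7 of 21.

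To set these genes against maturation in tissue, P56 was compared with P4 (n = 3 each), again without any library of the main comparison, though the P56 libraries are those used with TTX. Of 12979 genes tested, 1012 (7.8%) were higher and 1620 (12.5%) lower at P56. Of the 1012 genes that were higher at P56, 458 (45.3%) were lower at DIV28 than at P21, 25 were higher and 529 were neither, where 14.6% of all genes tested in both were lower at DIV28. Those 458 genes were 24.2% of the genes lower at DIV28 and tested in both. Of the 1620 genes that were lower at P56, 557 (34.4%) were higher at DIV28 and 148 were lower, against 12.5% higher among all genes tested in both. Kcng4 rose from P4 to P56 by 3.03 on the log2 scale (edgeR adjusted p = 2.9e-06) and Grin3b by 5.17 (2.1e-08). Nfib (-0.85, adjusted p = 5.3e-06) and Hoxc8 (0.78, adjusted p = 0.018) were not called between P4 and P56.

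Last, the DIV28 libraries were set against all 15 nuclear libraries of tissue from E13.5 to 2 years. The E10.5 libraries, made from whole cells, were left out. In 1088 of the 15521 genes tested (7.01%) every DIV28 library lay above every tissue library, and in 938 (6.04%) every DIV28 library lay below. These took in 765 of the genes higher at DIV28 than at P21 (37.2%) and 666 of the lower genes (32.8%). Sprr1a, Vip, Atf3, Lilr4b, Areg, Spp1, Egfr, Jun and Sox11 were above all 15 of these tissue libraries, and Chodl, Slc6a5 and Hoxc9 were below all. Gria3 lay within their range, since its mean at E13.5 was 126 normalised counts against 2295 at P56 and 93.0 at DIV28.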

How the data were processed

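Nuclei tagged with SUN1-GFP were isolated by affinity from tissue or culture and their total RNA was sequenced with a stranded kit. The authors aligned reads with STAR 2.5.2b and estimated gene abundance with RSEM 1.3.0 (mm10). The deposited values are expected counts (estimated counts) per gene, 55385 rows a library, not normalised. RSEM was run at its defaults, which do not use strand, so overlapping and antisense genes cannot be told apart, and reads of near-identical copies are split by estimate.

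Groups followed the deposited labels, except the library titled DIV0 replicate 3, counted as DIV28 replicate 3 after the study's sample table. Expected counts were rounded to whole numbers. A gene was kept if all replicates of some group reached 5 CPM, and edgeR 4.0.16 (R 4.3.3) was fitted by quasi-likelihood with TMM factors to all 25 RNA libraries without TTX, which share 1 estimate of the spread. Calls needed an unadjusted p under 0.001 and at least 2-fold, after the study's methods. The fits of TTX against P56 and of P56 against P4 used only the libraries of their own groups. Normalised counts were divided by median-of-ratios size factors over the 25 libraries. Where a group had no count, a floor of 3 counts over the group (1.39 normalised counts at P21, 0.568 at DIV28) gave the bound, and where it had 1 to 3 counts no fold is given. Library totals (3901648 to 21823500 counts) set the precision, and floors cover counting error only. In simulated counts for this comparison (13762 genes), 97 of 100 genes set to a 4-fold change were called, 41 of 100 set to 2-fold, and 9 of 13562 left alone. The changed genes were drawn from those with a mean of at least 5 CPM over the 25 libraries. All groups otherwise had the same mean, so genes almost absent from a group were not simulated.

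Genes named were the markers of their list written down as always named, up to 4 called members of each list with the largest fold in each direction, and the 12 called genes with the largest fold in each direction among genes with a mean of at least 200 normalised counts in the higher group, symbols of predicted genes left out. Further members were named after their values were seen. Groups, members and lists were chosen with earlier results of these data known. Coordinates are those of GENCODE M21 on GRCm38, the build called mm10 (55144 of 55385 gene IDs matched), and promoters are from RefSeq (GRCm38.p6). Alternatives were a left-out library, other size factors, no filter, other libraries in the fit, the likelihood ratio test, DESeq2 1.42.0, a replicate block and other limits. Tables were made with Python 3.11.15 and pandas 2.3.3 and figures with matplotlib 3.10.9. Some genes that the rule names are not reported here, though counts over lists include them.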

Additional observations from a re-analysis of the deposited data

How the results depend on the processing

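Counts of genes lower and higher at DIV28 (2031 and 2057) stayed within 1.5 times under every alternative except a limit of 4-fold, which by construction left 1064 and 848. Leaving out 1 library at a time gave 1731 to 2119 lower and 1688 to 2254 higher genes, and 357 to 422 called list members against 414. Beside that limit, the smallest counts, 1433 and 1497 (320 list members), came from fitting only the 6 libraries compared. DESeq2 gave 2352 and 2033, the likelihood ratio test 2357 and 2300, median-of-ratios factors 2134 and 1944, no filter on low counts 2775 and 2815, an adjusted p limit 2640 and 2608, and the fit without the E10.5 libraries 2038 and 2154. Replicate numbers do not pair these libraries: deviations of libraries with the same number correlated at 0.039, 0.012 and 0.0181, and the replicate block gave 1998 and 2001 genes and 414 list members. Without DIV28 replicate 3, the genes shared with TTX against P56 were 1012 lower and 1205 higher, and those shared with the age course 425 and 597, an alternative chosen after seeing the data.

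Among 297 named genes, no called direction reversed under any of 13 settings that tested the gene. A reversal was counted only where the gene was called in the main test or in that setting. Changes of sign in genes called in neither were not counted. Of 264 called genes, 221 stayed called wherever they were tested. The fit of the 6 libraries tested 254 of the 297 and the fit without the E10.5 libraries 294. Among genes of the text, calls were lost without DIV28 replicate 1 for Acan (-1.57), Xist (-4.45), Scn1a (-0.97), Bhlhe40 (1.49) and Pax6 (2.26), while Chat (-1.09) and Agrn (-1.01) became lower. Without DIV28 replicate 2 they were lost for Isl2 (-1.40), Pgr (1.09), Xist (-5.52), Ddx3y (1.24), Prima1 (-2.39), Hoxd11 (-2.27), Kdr (-2.80), Lrp4 (-2.32), Gdf11 (0.97), Spock3 (0.93) and Pax6 (2.34), and Hoxd10 (-2.49) became lower. Without DIV28 replicate 3 they were lost for the genes named with their values in the report. Without P21 replicate 1 they were lost for Pgr (1.03), Acan (-1.68), Ddx3y (1.42), Hoxd11 (-2.77), Gabrg3 (1.498) and Gpi1 (-0.88), without P21 replicate 2 for Pgr (1.05), Acan (-1.72), Xist (-4.53), Ddx3y (1.18), Olig2 (-1.92), Prima1 (-2.27), Scn1a (-1.11), Gabrg3 (1.49), Bhlhe40 (1.51) and Pax6 (2.27), and without P21 replicate 3 for Pgr (1.16), Ddx3y (1.44), Bhlhe40 (1.59) and Pax6 (1.79). Genes with 0 or 1 count at DIV28 have no value here: the call of Emcn was lost on leaving out any of the 6 libraries other than P21 replicate 1, that of Cldn5 without DIV28 replicate 2 and without P21 replicate 1 or 3, and that of Erbb3 without DIV28 replicate 2. In the fit of the 6 libraries calls were lost for Isl2 (-1.73), Acan (-1.76), Aqp4 (-3.35), Gfap (-3.15), Gabrg3 (1.58), Gdf11 (1.29), Mvd (2.25) and Dll1 (-1.44), with median-of-ratios factors for Pgr (1.03) and without the E10.5 libraries for Pax6 (2.39), while without the filter on low counts Hoxd10 (-1.54) became lower and Calca (1.13) higher. The cause was not tested. Depth limits the 2-fold differences of genes with few counts.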

Other observations

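Genes with no count in any library of a group were few. Of the 2031 genes lower at DIV28, 61 had no count there, and of the 2057 higher genes, 47 had none at P21.

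Shifts also differed by gene length, as a description of these libraries. With the genes tested split into 5 bins by the effective length in the deposited files, the median log2 difference was 0.37 in the bin of shortest genes, where 7.95% were lower and 17.4% higher at DIV28, and -0.08 in the bin of longest genes, where 15.6% were lower and 12.6% higher. By genomic span the bin of shortest genes had a median of -0.07, with 15.1% lower and 14.3% higher, and the bin of longest genes had a median of -0.21, with 20.3% lower and 11.1% higher. Among mitochondrially encoded mRNAs, mt-Co2 was listed above 0 in 1 of the 6 libraries, DIV28 replicate 1 (209 normalised counts), and mt-Co3 reached 97.0 in P21 replicate 2 and stayed below 0.1 in the other 5, and neither was called.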
